A study of Mus musculus with 6 samples.

Results

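The parathyroid hormone (PTH) receptor and the cAMP-PKA pathway below it were followed through 8 genes, Pth1r, Gnas, Prkaca, Prkacb, Prkar1a, Creb1, Crem and Pde4d, taken by symbol from the 23358 gene rows of the deposited count table. Each of the 8 had a row, and all 8 passed the filter on low counts. RNA was sequenced from MC3T3-E1, a mouse line of calvarial pre-osteoblasts of the C57BL/6 background that can lay down bone matrix. Confluent cultures had been exposed for 16 h to 1 µM of NU7441, a small molecule that blocks DNA-PK (the kinase that DNA ends activate), or to DMSO, with 3 samples per group. The labels name no PTH or other cAMP-raising agent, and the values are read here as those of the pathway without added hormone. Per the series' design text, the triplicates of 3 independent experiments had been pooled before sequencing, and nothing says which experiment a sample number stands for. The p-values therefore measure the spread between these samples, which may be technical. As these are bulk samples, fewer cells that express a gene and less RNA per cell cannot be told apart.

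PTH and the PTH-related peptide bind a receptor on osteoblasts that acts through the stimulatory G protein, whose alpha subunit switches on adenylyl cyclase. The cAMP made there binds the regulatory subunits of protein kinase A (PKA) and frees its catalytic subunits, which phosphorylate CREB and related factors at genes that carry cAMP response elements. Phosphodiesterases break cAMP down again, and receptor kinases and arrestins switch the receptor off. In bone the pathway is known for raising osteoblast activity under intermittent PTH and for driving bone resorption under continuous PTH.

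Of the 8 genes, 1 rose under NU7441, the catalytic subunit gene Prkacb, by 7.0%, and 0 fell. The other 7 did not pass the test, which was edgeR's quasi-likelihood test with Benjamini-Hochberg adjustment at 0.05. The 1 gene called is 12.5% of the members, against 30.7% called among the 13784 genes tested (14.1% higher and 16.6% lower). With 8 genes that share moved with the processing, and it was 37.5% (3 of 8) in 4 of the alternatives with all 6 samples, DESeq2 (29.8% of all genes), upper-quartile scaling (32.0%), the robust fit (31.6%) and the replicate block (37.1%). The members' median log2 fold change was 0.03, and that of all genes tested was 0.01. By unadjusted p under 0.05, which 39.9% of all genes tested passed in either direction, 3 members were higher and 0 lower. DESeq2 also called 3 higher (Prkacb, Gnas and Prkar1a) and 0 lower. The groups did not overlap for 3 of the 8 genes, 37.5%, where 42.8% of all genes tested had groups that did not overlap. The 95% intervals of the fold change lay between -13.0% and 22.7% for all 8 genes. Without DMSO replicate 1 or 2 the call of Prkacb was lost, and without DMSO replicate 1 Pth1r was called lower.

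**Figure D1:**
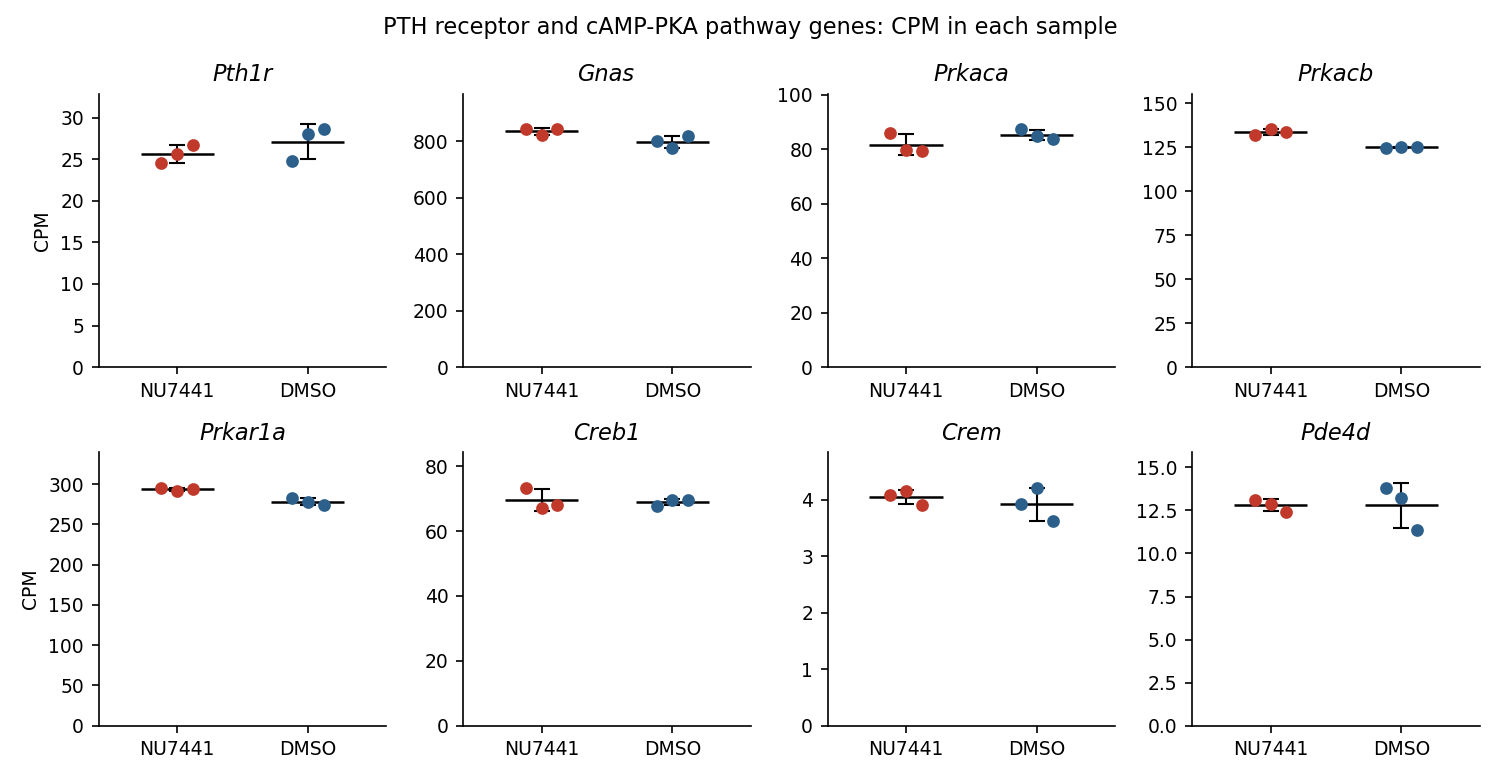
CPM (the count scaled to a common library size, with TMM factors) of each of the 8 genes in the 3 NU7441 samples (red, left) and the 3 DMSO samples (blue, right), with mean (long bar) and SD (error bar). The groups overlap for Pth1r, Prkaca, Creb1, Crem and Pde4d and do not for Gnas, Prkacb and Prkar1a, whose NU7441 samples all lie above the DMSO samples.

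The libraries held 52150994 to 55021692 gene counts in NU7441 and 47312968 to 71292628 in DMSO. Since 0 of the deposited counts were odd, the mates of a pair may have been counted one by one, and a fit on halved counts was run beside. Prkdc, which encodes the catalytic subunit of the kinase that NU7441 blocks, stood at 44.9 CPM in NU7441 and 49.4 CPM in DMSO (adjusted p by edgeR 0.0163, but 0.0546 without NU7441 replicate 1 and 0.0611 without DMSO replicate 2). Of the osteoblast lineage markers, 10 of 10 had rows and 8 were tested. Of these 8, 3 rose (Spp1, Col1a2 and Dmp1) and 2 fell (Alpl and Ibsp), 62.5% called against 30.7% of all genes tested. DESeq2 called 2 higher and 2 lower. The summed level of the list was 42960 to 44020 CPM in NU7441 and 41680 to 43910 CPM in DMSO, nearly all of it from collagen genes. Bglap, a marker of mature osteoblasts, had 6 to 12 counts in NU7441 and 2 to 12 in DMSO. Of the lists for other cells, the adipocyte list summed to 0.306 to 1.03 CPM in NU7441 and 0.502 to 0.716 CPM in DMSO, and the endothelial list to 0.267 to 0.551 and 0.288 to 0.502 CPM. Ptprc, Kdr and Myod1, markers of leukocytes, endothelium and muscle, had 0 counts in all 6 samples. Other genes of these lists did have counts. Over the 6 samples Csf1r had 42 to 84, Cd68 48 to 112, Pecam1 8 to 28 and Des 50 to 88. Of the chondrocyte list, 2 of 4 tested genes were higher, 50% called against 30.7% of all genes tested, and DESeq2 called 1. The 2 were Sox9, at 79.3 CPM in NU7441 and 72.2 CPM in DMSO, and Col2a1, at 9.94 and 8.49 CPM. Col10a1 and Comp were not called, and Acan had 0 counts in all 6 samples. The summed level of the list, most of it Sox9, was 89.5 to 93.7 CPM in NU7441 and 82.2 to 83.9 CPM in DMSO. It thus moved with the group, and its part in the results was not tested. The macrophage and osteoclast list summed to 112 to 118 CPM in NU7441 and 106 to 114 CPM in DMSO, nearly all of it Ctsk, which osteoblasts can also express, and the muscle list to 1.149 to 1.62 and 1.08 to 1.14 CPM.

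Among the 8 genes, levels spanned more than 2 orders of magnitude per length. In CPM per kb of the deposited gene length, averaged over the 6 samples, the order was Gnas at 134.8, Prkar1a at 86.1, Prkaca at 36.4, Prkacb at 25.4, Pth1r at 9.69, Creb1 at 8.23, Pde4d at 1.82 and Crem at 1.01. No 2 neighbours in that order overlapped over the 6 samples. The closest pair was Pth1r, at 9.01 to 10.5 CPM per kb, and Creb1, at 7.98 to 8.72 CPM per kb. These levels rest on 1 deposited length per gene, and genes with several start sites or ends may use shorter transcripts.

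Pth1r encodes the G protein-coupled receptor shared by PTH and the PTH-related peptide (mm10 chromosome 9, 110722085 to 110747145). It had 24.52, 25.58 and 26.66 CPM in the NU7441 samples, against 24.79, 27.98 and 28.61 CPM in the DMSO samples. The groups overlapped through DMSO replicate 1, which lay among the NU7441 samples. The log2 fold change of Pth1r was -0.09 ± 0.05 (SE; adjusted p by edgeR = 0.263), with a 95% interval of the fold change from -13.0% to 2.1%. Without DMSO replicate 1 the log2 fold change was -0.15 and the gene was called lower (adjusted p = 0.0377). The deposited counts of Pth1r were 1284 to 1392 in NU7441 and 1328 to 2054 in DMSO, and 1.68% of the 50-base windows of its annotated transcripts also occurred in those of Myl3.

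The ligand genes had next to no counts. Pth had 0 counts in all 6 samples, and Pthlh, which encodes the PTH-related peptide, had 4 to 6 counts in NU7441 and 0 to 4 in DMSO. The second PTH receptor gene, Pth2r, had 0 to 6 counts in NU7441 and 2 to 4 in DMSO. Of the 14 listed ligands, Gs-coupled receptors and receptor partners, 6 were tested. By edgeR 0 were called higher and 0 lower, with 2 higher and 1 lower by unadjusted p under 0.05 and 0 called by DESeq2. Over all genes, edgeR called 30.7%, 39.9% passed by unadjusted p and DESeq2 called 29.8%. In 4 alternatives 1 of them was called higher (no filter on low counts, the replicate block, without NU7441 replicate 1 and without DMSO replicate 3), and without DMSO replicate 1, 1 was called lower.

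Gnas encodes the alpha subunit of the stimulatory G protein from an imprinted locus with several first exons (mm10 chromosome 2, 174284320 to 174346742). It had 843, 822 and 842 CPM in the NU7441 samples, against 799.8, 775.5 and 819 CPM in the DMSO samples. Every NU7441 sample lay above every DMSO sample, with NU7441 replicate 2 and DMSO replicate 3 the closest pair. The log2 fold change of Gnas was 0.07 ± 0.03 (SE), a difference of 4.7% that did not pass the test (edgeR, adjusted p = 0.0722). DESeq2 called the gene higher (adjusted p = 0.0381), and so did the fit without DMSO replicate 3 (adjusted p = 0.0332). The row gives 1 value for a locus with several starts, so the transcripts of the alpha subunit cannot be told apart from the others. Of the 50-base windows of the annotated Gnas transcripts, 18.6% also occurred in transcripts of 2 other genes, one of them the antisense gene Nespas, which had 56 to 98 counts per sample in the deposited table.

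Of 11 tested genes for other G protein subunits and a G protein chaperone, 0 rose and 1 fell. That is 9.09% called, against 30.7% of all genes tested. The one that fell was Gna11, which encodes an alpha subunit of the Gq class, the second class of G protein that the PTH receptor can use. It averaged 101 ± 2.28 CPM in NU7441 and 109.9 ± 2.29 CPM in DMSO (SD, n = 3 each), and its log2 fold change was -0.12 ± 0.03 (SE; adjusted p by edgeR = 0.0102). Leaving out DMSO replicate 1 took its adjusted p to 0.0516 and the number that fell to 0. For the count of 0 higher, the counts by unadjusted p under 0.05 and by DESeq2 were also 0. Of 5 tested adenylyl cyclases, 1 rose and 0 fell, 20% called beside the same 30.7% of all genes. By unadjusted p 2 were lower and by DESeq2 0. Adcy6, one of the cyclases that Gs activates, averaged 130.2 ± 0.667 CPM in NU7441 and 120.7 ± 1.83 CPM in DMSO (log2 fold change 0.11 ± 0.03, adjusted p by edgeR = 0.00824).

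Of the 2 catalytic subunit genes of PKA, Prkacb rose and Prkaca did not pass the test. Prkacb, which encodes the beta catalytic subunit (mm10 chromosome 3, 146729579 to 146812946), had 132, 135 and 134 CPM in the NU7441 samples, against 124.5, 125.3 and 124.9 CPM in the DMSO samples. The groups did not overlap, and relative to their mean the 3 DMSO samples lay closer together than those of any other member. The log2 fold change of Prkacb was 0.10 ± 0.03 (SE; adjusted p by edgeR = 0.0136), with a 95% interval of the fold change from 2.8% to 11.5%. Leaving out DMSO replicate 1 took the adjusted p to 0.0569 and leaving out DMSO replicate 2 took it to 0.0524, both above the threshold, at an unaltered log2 fold change of 0.10.

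Prkaca, which encodes the alpha catalytic subunit (mm10 chromosome 8, 83972978 to 83996445), had 86.1, 79.6 and 79.3 CPM in the NU7441 samples, against 87.4, 84.7 and 83.9 CPM in the DMSO samples. The groups overlapped through NU7441 replicate 1, which lay between the DMSO samples. The log2 fold change of Prkaca was -0.06 ± 0.04 (SE) and did not pass the test (edgeR, adjusted p = 0.246), with a 95% interval from -9.5% to 1.3%. Without NU7441 replicate 1 it was -0.10, with an adjusted p of 0.0504. Prkaca made up 59.1%, 56.6% and 56.8% of the summed per-length level of the 2 catalytic genes in the NU7441 samples, against 60.8%, 59.97% and 59.8% in the DMSO samples. All 3 NU7441 samples lay below all 3 DMSO samples, a difference of -2.71 percentage points (exact permutation test, two-sided p = 0.1, with 3 samples per group the smallest value it can take). The summed level of both genes was 60.9 to 63.5 CPM per kb in NU7441 and 61.1 to 62.6 CPM per kb in DMSO, and these ranges overlapped. The 2 genes are close paralogs, but 0 of the 8716 distinct 50-base windows of the Prkacb transcripts and 8 of the 2438 of Prkaca occurred in another gene's transcripts.

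Prkar1a, which encodes the type I alpha regulatory subunit that holds the catalytic subunits inactive until cAMP binds (mm10 chromosome 11, 109650949 to 109669648), had 295.6, 292 and 294 CPM in the NU7441 samples. The DMSO samples had 283, 277 and 274.5 CPM, and the groups did not overlap. The log2 fold change of Prkar1a was 0.08 ± 0.03 (SE), a difference of 5.6% whose adjusted p of 0.0539 (edgeR) lay just above the threshold. It was called higher by DESeq2 (adjusted p = 0.0119) and in the robust fit (0.0287), and with each sample left out in turn its adjusted p lay between 0.056 and 0.175.

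Of the other 3 regulatory subunit genes, Prkar2a fell, and Prkar2b and Prkar1b did not pass the test. Prkar2a, which encodes a type II subunit that binds anchoring proteins, had 39.4, 39.8 and 39.5 CPM in the NU7441 samples, against 46.4, 48.9 and 48.5 CPM in the DMSO samples. It fell with groups that did not overlap, at a log2 fold change of -0.28 ± 0.04 (SE; adjusted p by edgeR = 2.7e-05). Prkar2b, the other type II gene, averaged 38.5 ± 2.42 CPM in NU7441 and 37.2 ± 1.33 CPM in DMSO and did not pass the test (edgeR, adjusted p = 0.451). Prkar1b, the scarce type I beta gene, had 18 to 32 counts in NU7441 and 2 to 26 in DMSO (edgeR, adjusted p = 0.172). Prkar1a made up 80.5%, 81.0% and 80.1% of the summed per-length level of the 4 regulatory genes in NU7441, against 78.8%, 78.1% and 78.4% in DMSO. The groups did not overlap, with a difference of 2.07 percentage points (exact permutation test, two-sided p = 0.1). The PKA inhibitor gene Pkig averaged 13.1 CPM per kb in NU7441 and 13.0 in DMSO, and Pkia and Pkib had at most 18 and 6 counts in any sample. Of the 4 tested genes of this list, 0 were higher and 1 lower, with 0 higher also by unadjusted p and by DESeq2. With 1 called the share was 25%, against 30.7% of all genes tested.

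**Figure D2:**
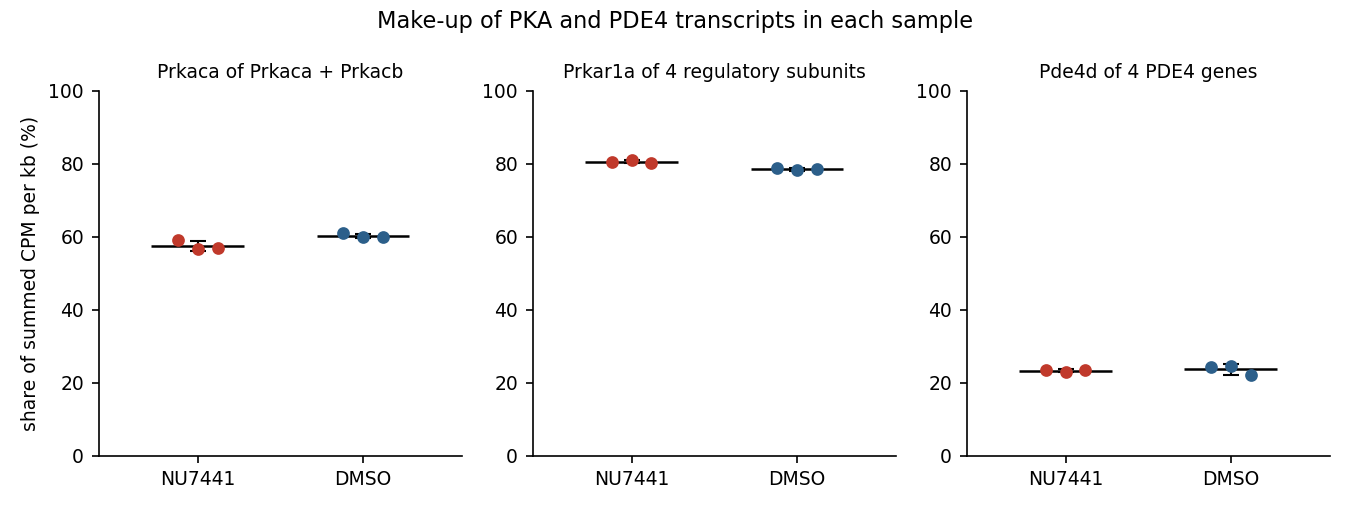
Share of the summed CPM per kb, in percent, that Prkaca takes of both catalytic genes (left), Prkar1a of the 4 regulatory genes (middle) and Pde4d of the 4 PDE4 genes (right), in NU7441 samples (red) and DMSO samples (blue), with mean and SD. The Prkaca share was 57.5% in NU7441 and 60.2% in DMSO, the Prkar1a share 80.5% and 78.4%, and the Pde4d share 23.2% and 23.6%, the last with groups that overlap.

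The promoters of the 3 PKA genes are shown because they are the catalytic and main regulatory genes on which these shares rest, and because CREB, the pathway's own factor, binds the palindrome TGACGTCA, the cAMP response element, or the shorter TGACG that it holds on both strands. Each sequence is the 250 bases before the start at the 5′ end of the deposited gene, from RefSeq on GRCm38.p6 (the assembly of mm10), in the direction of transcription. Capitals mark TGACG on either strand, which reads CGTCA on the other one, and the palindrome where it occurs.
Prkar1a (chr11:109650699-109650948, plus strand): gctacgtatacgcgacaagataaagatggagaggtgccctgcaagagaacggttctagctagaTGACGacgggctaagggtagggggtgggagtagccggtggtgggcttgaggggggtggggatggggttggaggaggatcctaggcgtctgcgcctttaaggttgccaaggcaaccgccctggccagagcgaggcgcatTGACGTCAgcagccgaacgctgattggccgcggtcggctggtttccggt
Prkacb (chr3:146812947-146813196, minus strand): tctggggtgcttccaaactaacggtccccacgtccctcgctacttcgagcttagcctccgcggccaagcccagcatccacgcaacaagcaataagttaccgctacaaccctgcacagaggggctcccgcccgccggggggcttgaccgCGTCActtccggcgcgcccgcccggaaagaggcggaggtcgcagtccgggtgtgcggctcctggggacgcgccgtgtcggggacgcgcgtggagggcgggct
Prkaca (chr8:83972728-83972977, plus strand): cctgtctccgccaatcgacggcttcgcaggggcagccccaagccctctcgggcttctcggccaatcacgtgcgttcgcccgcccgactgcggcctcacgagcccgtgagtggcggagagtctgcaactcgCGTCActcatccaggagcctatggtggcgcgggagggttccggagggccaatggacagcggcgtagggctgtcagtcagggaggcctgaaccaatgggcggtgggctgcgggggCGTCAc
Counting back from -1 at the base before the start, the palindrome of Prkar1a began at -49, and a further TGACG at -187. Prkacb had 1 TGACG, at -102 on the other strand, and Prkaca had 2 there, at -120 and -6. RefSeq windows of 300 bases around a start (250 before it and 50 from it on) were found for 7 of the 8 genes, 20 windows in all. Of these 20, 2 held the palindrome, both through the same Prkar1a site, and 9 (45.0%) held TGACG. Of all 32851 windows of that length, 1.79% held the palindrome and 20.8% TGACG, counted on both strands and with those inside palindromes included. Of the other pathway genes described further on, 93 had such windows, 134 in all, and 2 of these (1.49%) held the palindrome, those of Areg and Dusp1, which were not called. Windows of the same gene overlap, so these shares are a description and not a count of binding sites.

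Creb1 encodes CREB, the factor that PKA phosphorylates (mm10 chromosome 1, 64532804 to 64604548). It had 73.4, 67.2 and 68.1 CPM in the NU7441 samples, against 67.8, 69.5 and 69.6 CPM in the DMSO samples. The groups overlapped, and the log2 fold change of Creb1 was 0.01 ± 0.04 (SE; adjusted p by edgeR = 0.853), with a 95% interval of the fold change from -4.8% to 6.8%. Without NU7441 replicate 1, the highest sample, the log2 fold change was -0.03.

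Crem encodes activators and repressors of the same family, among them the short repressor ICER, which cAMP itself induces (mm10 chromosome 18, 3266354 to 3337589). It had 4.09, 4.15 and 3.91 CPM in the NU7441 samples, against 3.92, 4.21 and 3.62 CPM in the DMSO samples, from 204 to 226 and 200 to 260 counts. Crem was the member with the fewest counts, its groups overlapped, and its log2 fold change was 0.05 ± 0.11 (SE; adjusted p by edgeR = 0.771), with a 95% interval from -12.3% to 22.7%. One value per gene cannot separate ICER from the longer forms. Of its 50-base windows 5.72% also occurred in Gm6225, a neighbour with 12 to 18 counts per sample.

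Pde4d encodes a cAMP-specific phosphodiesterase with many start sites (mm10 chromosome 13, 108654177 to 109955969). It had 13.1, 12.9 and 12.4 CPM in the NU7441 samples, against 13.8, 13.2 and 11.3 CPM in the DMSO samples. DMSO replicate 3 lay below all other samples, and the groups overlapped. The log2 fold change of Pde4d was 0.00 ± 0.08 (SE; adjusted p by edgeR = 0.971), with a 95% interval from -10.2% to 12.2%. Without DMSO replicate 3 it was -0.08. Pde4d made up 23.5%, 22.8% and 23.4% of the summed per-length level of the 4 PDE4 genes in NU7441, against 24.4%, 24.6% and 22.0% in DMSO (exact permutation test, two-sided p = 0.6). Pde4a stood at 4.41 CPM per kb in NU7441 and 4.33 in DMSO, above Pde4d at 1.82 in both groups, Pde4b at 1.12 and 1.09 and Pde4c at 0.46 and 0.434.

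**Figure D3:**
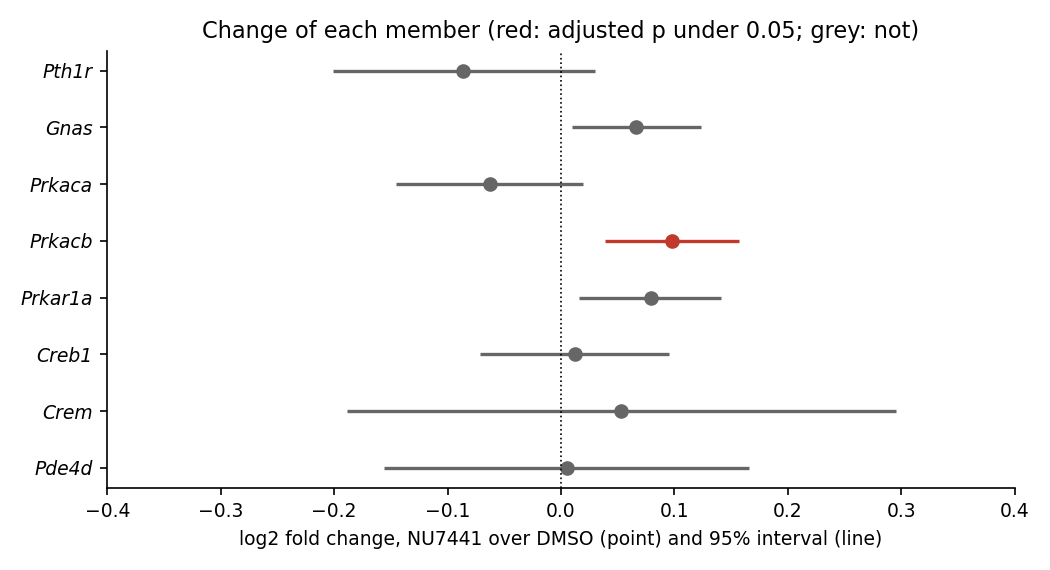
Log2 fold change of NU7441 over DMSO for the 8 genes (point) with its 95% interval (line), red where the adjusted p was under 0.05. Only the interval of Prkacb is red, at 0.10, and the widest interval is that of Crem.

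The other genes of the pathway, 117 in 10 lists that share no gene, had 91 tested members. Of these 18 rose and 7 fell, 27.5% called against 30.7% of all genes tested, with a median log2 fold change of 0.04 (0.01 over all genes). With each sample left out in turn, 12 to 19 were higher and 5 to 8 lower, the 12 being the number without DMSO replicate 2.

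**Figure D4:**
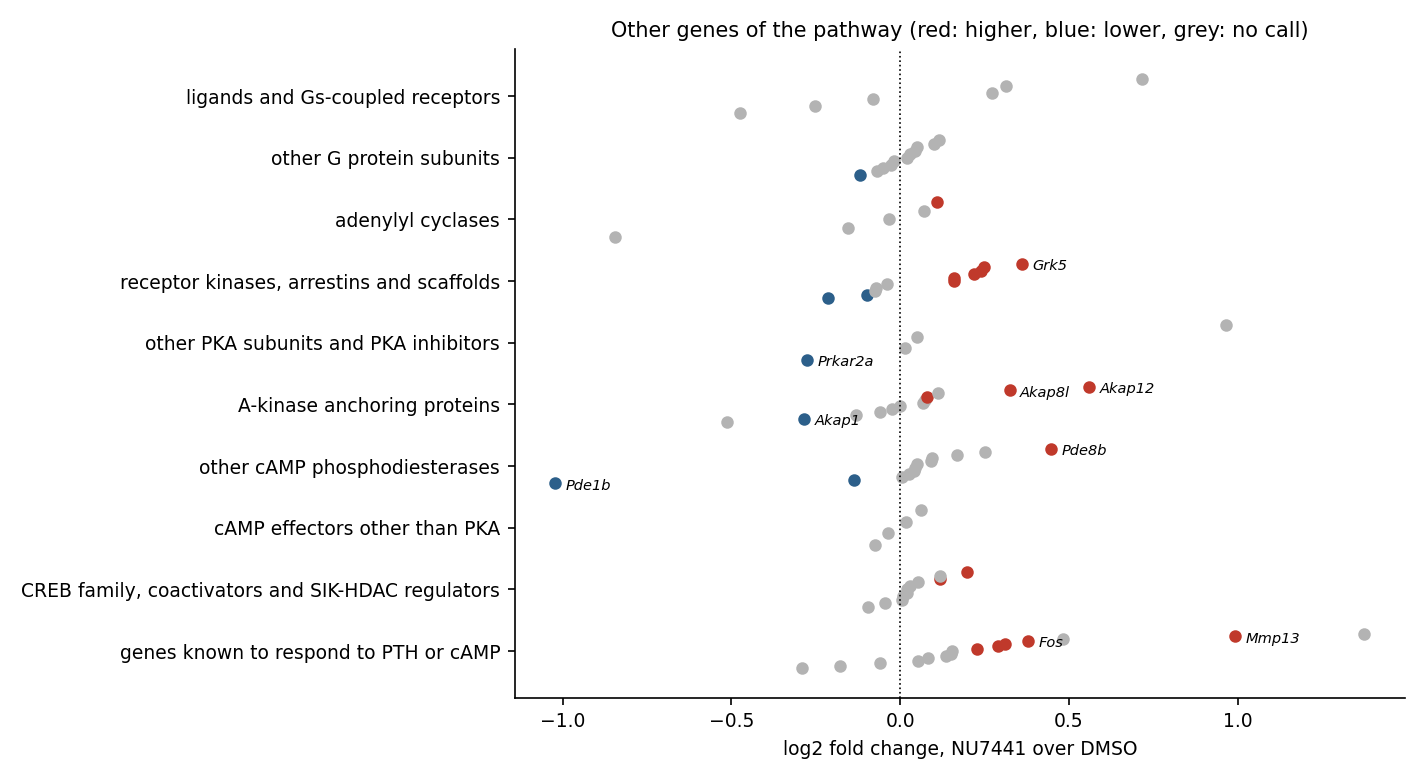
Log2 fold change of NU7441 over DMSO for each of the 91 tested pathway genes outside the 8, 1 row of points per list, red where higher, blue where lower and grey where not called. Akap12 and Mmp13 stand to the right of the other called genes, at 0.56 and 0.99, and Pde1b to the left, at -1.02.

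Of 11 genes for receptor kinases, arrestins, scaffolds and receptor sorting, 6 rose and 2 fell, with a median log2 fold change of 0.16. That is 72.7% called, against 30.7% of all genes tested (14.1% higher and 16.6% lower). The list was chosen with earlier results of these data known, so this share is a description only. Its summed level was 553 to 568 CPM in NU7441 and 548 to 563 CPM in DMSO, and these ranges overlapped. DESeq2 called 5 higher and 2 lower. With each sample left out in turn, 3 to 5 were higher and 1 to 3 lower. The kinases and arrestins are known for switching off active receptors. Grk5, a receptor kinase, had 15.35, 15.44 and 14.98 CPM in the NU7441 samples, against 12.59, 11.8 and 11.28 CPM in the DMSO samples. These groups did not overlap, and its log2 fold change was 0.36 ± 0.06 (SE; adjusted p by edgeR = 0.000407). Adrbk2, the gene of the receptor kinase GRK3, rose by 0.22 ± 0.04 on the log2 scale (adjusted p = 0.000399) and Grk4 by 0.25 ± 0.06 (0.0067). Arrb1, which encodes an arrestin, rose by 0.16 ± 0.04 (0.0104), a call lost without DMSO replicate 2 (0.05). The other 2 called higher were scaffold genes, Slc9a3r1 by 0.24 ± 0.09 (0.0498) and Slc9a3r2 by 0.16 ± 0.05 (0.0261), and both lost the call often. Slc9a3r1 lost it with library size only (0.0817), in the robust fit (0.129) and without NU7441 replicate 1 (0.188), 2 (0.0503) or 3 (0.0541) or DMSO replicate 2 (0.156) or 3 (0.239, at a log2 fold change of 0.149). Slc9a3r2 lost it with DESeq2 (0.0646), library size only (0.0516) and without NU7441 replicate 2 (0.131) or DMSO replicate 1 (0.0757), 2 (0.0533) or 3 (0.051). Grk6, another kinase of the family, fell to 50.4 ± 1.67 CPM in NU7441, against 58.4 ± 2.23 CPM in DMSO (log2 fold change -0.21 ± 0.04, edgeR, adjusted p = 0.000801). Vps35, a subunit of the retromer that returns receptors from endosomes, fell by 0.10 on the log2 scale (adjusted p = 0.0375). Its call was lost without NU7441 replicate 2 or 3 (0.159 each) and without DMSO replicate 1 (0.198), 2 (0.0684) or 3 (0.0756), and with upper-quartile scaling (0.108). Without DMSO replicate 2 the number that rose was 3, and without NU7441 replicate 2 or 3 or any 1 DMSO replicate the number that fell was 1.

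Of 12 tested anchoring proteins, which tether PKA, 3 rose and 1 fell (33.3% called, close to the 30.7% of all genes, median log2 fold change 0.03). Akap12, a large membrane-associated scaffold for PKA and the beta2 adrenergic receptor, had 92.3, 95.3 and 87.3 CPM in the NU7441 samples, against 62.3, 64.8 and 59.4 CPM in the DMSO samples. Every NU7441 sample lay above every DMSO sample, and the log2 fold change was 0.56 ± 0.04 (SE; adjusted p by edgeR = 1.06e-07). Akap8l, a nuclear protein of the family, rose by 0.32 ± 0.05 on the log2 scale (adjusted p = 0.000137). Akap1, which anchors PKA at the outer mitochondrial membrane, fell to 33.2 ± 0.201 CPM in NU7441, against 40.4 ± 1.22 CPM in DMSO (log2 fold change -0.28 ± 0.04, edgeR, adjusted p = 3.13e-05). Akap13 rose by 0.08 on the log2 scale (adjusted p = 0.0447), and this call was lost with library size only (0.159), no filter on low counts (0.0601), without the ribosomal RNA row Rn45s (0.0532), and without NU7441 replicate 1 (0.151) or 3 (0.128) or DMSO replicate 1 (0.0734), 2 (0.131) or 3 (0.196).

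Of 12 tested cAMP phosphodiesterases other than Pde4d, 1 rose and 2 fell, with a median log2 fold change of 0.05. That is 25% called, against 30.7% of all genes tested. Pde8b, a high-affinity cAMP phosphodiesterase, averaged 7.11 ± 0.503 CPM in NU7441 and 5.21 ± 0.234 CPM in DMSO (log2 fold change 0.45 ± 0.09, edgeR, adjusted p = 0.00216). Pde1b, a calcium-calmodulin-dependent enzyme, had few counts, 28 to 36 in NU7441 against 56 to 80 in DMSO, and its log2 fold change was -1.02 ± 0.26 (adjusted p by edgeR = 0.00791). Pde7a fell by 0.14 on the log2 scale (adjusted p = 0.0376). Its call was lost with DESeq2 (0.105), upper-quartile scaling (0.0859), no filter on low counts (0.0553) and without NU7441 replicate 2 (0.167) or 3 (0.0726) or DMSO replicate 2 (0.127) or 3 (0.0845), which leaves 1 that fell. The 4 tested cAMP effectors other than PKA, among them the exchange factor genes Rapgef3 and Rapgef4, had 0 calls in either direction by edgeR, by unadjusted p under 0.05 and by DESeq2. Over all genes tested, 30.7% were called by edgeR.

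Among the CREB family, its coactivators and the SIK-HDAC regulators that PTH signalling acts on, 2 of 11 rose and 0 fell. That is 18.2% called, all of it higher, against 30.7% of all genes tested (14.1% higher and 16.6% lower). Hdac5, which encodes a class IIa histone deacetylase, averaged 107 ± 2.33 CPM in NU7441 and 93.5 ± 2.92 CPM in DMSO (log2 fold change 0.20 ± 0.03, edgeR, adjusted p = 0.000446). Ep300, which encodes the coactivator p300, averaged 136 ± 1.01 CPM in NU7441 and 126 ± 0.128 CPM in DMSO (log2 fold change 0.12 ± 0.03, adjusted p = 0.00414). By unadjusted p 1 was lower and by DESeq2 0, and the number called lower was 1 with library size only, the replicate block and halved counts and without DMSO replicate 2.

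Of 15 tested genes known to respond to PTH or cAMP, 5 rose and 0 fell, with a median log2 fold change of 0.15. That is 33.3% called, all of it higher, against 30.7% of all genes tested (14.1% higher and 16.6% lower). This list too was chosen with earlier results of these data known, so the share is a description only. By unadjusted p under 0.05, which 39.9% of all genes tested passed in either direction, 8 were higher and 0 lower. DESeq2 called 5 higher and 0 lower. These genes also answer to other signals. Mmp13, a collagenase that PTH induces in osteoblasts, had 53.1, 52.4 and 52.8 CPM in the NU7441 samples, against 26.4, 27.7 and 25.6 CPM in the DMSO samples. Its log2 fold change was 0.99 ± 0.04 (SE; adjusted p by edgeR = 1.68e-10). Per1, a clock gene with cAMP response elements known from its promoter, rose by 0.23 ± 0.04 on the log2 scale (adjusted p = 0.000703). Junb, an AP-1 gene, rose by 0.31 ± 0.07 (0.00204), and the immediate early gene Fos by 0.38 ± 0.13 (0.0445). Fos lost its call with library size only (0.055), without NU7441 replicate 2 (0.165) or 3 (0.0927) and without DMSO replicate 2 (0.0971) or 3 (0.195). Nr4a1, an orphan nuclear receptor induced early by PTH, had 8.13, 10.6 and 10.7 CPM in the NU7441 samples, against 7.84, 8.34 and 7.88 CPM in the DMSO samples, with groups that overlapped. Its adjusted p was 0.0369 and lay above 0.05 without NU7441 replicate 2 (0.156) or 3 (0.154) and without DMSO replicate 1 (0.107), 2 (0.0729) or 3 (0.101). The number of these genes that rose was 3 without NU7441 replicate 3 and without DMSO replicate 2 or 3. Tnfsf11, the gene of RANKL, through which PTH drives resorption, had 0 to 2 counts in NU7441 and 0 in DMSO, and Sost had 0 counts in all 6 samples.

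The genes whose pattern over the 6 samples lay nearest to each member, by the root mean square difference of centred log2 CPM among 8924 or 8925 other genes of at least 10 CPM, were as follows. Nearest to Prkacb were Tulp4 (0.0073) and Polr1c (0.0078), which rose with it at log2 fold changes of 0.11 and 0.09. Nearest to Prkar1a were Ankrd44 (0.0079) and Pgcp (0.0089), and to Gnas Elf4 (0.0078) and Ppp2r1a (0.0081). Pth1r was nearest to Cdc42ep3 (0.0192) and Zfp507 (0.0239), and Prkaca to Mvk (0.0094) and Cd2bp2 (0.0127). The distances for Creb1 (Necap2 at 0.0128 and AI314976 at 0.0147), Crem (Rnf166 at 0.0246 and Cln6 at 0.0263) and Pde4d (Gm16039 at 0.0354 and Zfp654 at 0.0369) were wider than those of Prkacb, Prkar1a and Gnas. With so many candidates and 6 samples such nearness describes these libraries only.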

How the data were processed

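For each gene row the deposited table holds read counts and RPKM per sample and a length, as made by the authors and named per the file headers. The length column is headed CodingLength. It is the deposited gene length by which levels per kb and shares were divided here. Per the submitters' processing notes the tools were bcl2fastq, HTSeq and TopHat2 (2.0.6), on mm10. The sources used here do not say whether reads were counted by strand, so overlapping and antisense genes cannot be told apart. The deposited counts were filtered with filterByExpr (at least 10 counts, at least 15 in total) and normalised by TMM. NU7441 was then compared with DMSO (3 samples each, group as the only term) by edgeR's quasi-likelihood test (version 4.0.16, R 4.3.3), two-sided, with p-values adjusted by Benjamini-Hochberg over every tested gene. The SE is the size of the log2 fold change divided by the square root of F. CPM use the TMM-scaled library sizes. The deposited RPKM values were not used. DESeq2 1.42.0, other scalings, no filter, a robust fit, halved counts, a replicate block and leaving out each sample were tried as alternatives. Positions are those of the deposited table. Shared windows were counted in GENCODE M21 transcripts.

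The members and lists were chosen with earlier results of these data known. Genes named are the 8 members, the called genes of each list (at most 4 in each direction by adjusted p), those of the 3 shares, the nearest patterns, genes that overlap a member, and Prkdc. Other genes are named as markers or for their low counts, after their values were seen. The procedure was tested on simulated counts for NU7441 against DMSO over 13679 genes, with changed genes drawn from those of at least 100 counts. It recovered 84% of genes changed by 1.25-fold and 96% of those changed by 1.5-fold, with 16 of 206 calls false. Changes under 1.25-fold, the size of those of all 8 members, were not simulated. The recovery therefore does not show how often such changes would be missed. Samples of a group differed by more than sampling noise, so none was taken as a library sequenced again, and each was counted once. This does not show that they came from separate experiments.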

Additional observations from a re-analysis of the deposited data

How the results depend on the processing

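The 8 genes kept their direction in every alternative with all 6 samples except library size only, where Creb1 stood at -0.007 and Pde4d at -0.015 (log2 fold change). Gnas and Prkar1a were called higher with DESeq2 (0.067 and 0.08), upper-quartile scaling (0.092 and 0.10), the robust fit (0.066 and 0.079) and the replicate block (0.067 and 0.079), so that 3 members were higher in each. With halved counts Prkar1a was also called (0.078), which gave 2 members higher. With each sample left out in turn, 0 to 2 members were higher and 0 to 1 lower. The log2 fold changes then lay between -0.15 and -0.043 for Pth1r, 0.046 and 0.085 for Gnas, -0.10 and -0.042 for Prkaca, 0.091 and 0.11 for Prkacb, 0.07 and 0.09 for Prkar1a, -0.029 and 0.038 for Creb1, -0.005 and 0.10 for Crem, and -0.081 and 0.065 for Pde4d, and the difference in the Pde4d share between -1.24 and 0.06 percentage points. Pde4b stood at -0.02 without DMSO replicate 3. The cause was not tested. Of the 25 other pathway genes called, all kept their direction and 16 also their call in the 15 alternatives. Of the calls over all genes, 56.5% were higher with upper-quartile scaling and 37.7% with library size only, against 45.9% with TMM. Deviations of same-numbered samples from their group means correlated at 0.134, 0.088 and 0.047 across genes. Each sample correlated best with its own number. The second principal component of log2 CPM (17.5% of the variance) also gave samples of the same number the same rank in both groups. It stood at 16.6, -14.4 and -1.28 in NU7441 replicates 1 to 3 and at 12.2, -8.44 and -4.6 in DMSO. The main fit did not take the numbers as pairs because the series' text states no paired analysis. The replicate block called 5120 genes, against 4231 without it. With the block the edgeR adjusted p was 0.00589 for Gnas and 0.0111 for Prkar1a. Crem had the fewest counts of the members and the widest interval.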
